A study of Homo sapiens with 13 samples.

Results

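The genes described here are 36 human genes for heat shock proteins, their partner proteins (cochaperones) and 2 of the transcription factors that drive them. They were taken by symbol from a list and looked up in the table of raw read counts through Ensembl identifiers. Of the 43836 rows of that table, 36 were these genes: 35 matched by current symbol, and HSPB11 is the older symbol of IFT25. The table came from mRNA sequencing of hFOB 1.19 cells, a human fetal osteoblast line immortalized with a temperature-sensitive SV40 large T antigen. Cells of the positive control were kept in medium with 10% fetal bovine serum (FBS), and cells of the negative control in medium without it. RES, POG and DEG cells also had no serum and were given a compound at 1 µg/mL. RES is resveratrol, a stilbene, and POG is peonidin-3-O-glucoside, an anthocyanin. The labels list delphinidin-3-glucoside among the compounds but do not spell out the code DEG, which is kept here as a code. Per the study's methods, both controls also received the DMSO vehicle and starvation lasted a day. There were 2 positive control, 2 negative control, 3 RES, 3 POG and 2 DEG libraries. All came from 1 cell line, so they are not donors, and although compounds were added to wells in triplicate per the study's methods, the sources used here do not say whether the libraries of a group came from independently grown cultures. The p-values therefore measure the spread between these libraries, which may be technical.

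Molecular chaperones bind proteins that are not fully folded and use ATP to help them fold, refold or be degraded. HSP70 proteins do the first step with J proteins, which deliver substrates, and with nucleotide exchange factors such as the HSP110 and BAG proteins, which release them. HSP90 proteins act later, on kinases and steroid receptors among others, and take substrates from HSP70 through linker cochaperones. Small heat shock proteins hold unfolded proteins without ATP. When unfolded proteins accumulate, the transcription factor HSF1 binds heat shock elements, repeats of the base triplet GAA and its reverse complement TTC, and raises many of these genes together. The list is named for cytosolic proteins, but HSPA9, HSPD1, HSPE1 and DNAJA3 act in mitochondria, HSPA13 in microsomes, and HSPB11 (IFT25) in transport along cilia. These members are described as what they are.

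The libraries held between 38464619 and 51416358 reads on genes. After a filter on low counts 17092 genes stayed in the test, and all 36 members were among them. The osteoblast genes COL1A1 (2463 to 2869 CPM), COL1A2 (1112 to 1420 CPM), SPARC (1019 to 1177 CPM) and RUNX2 (44.3 to 51.6 CPM) were present in every library, where CPM is the read count scaled to library size, with TMM factors. The other 5 of the 9 osteoblast genes read were low: ALPL at 3.22 to 6.66 CPM, SPP1 at 0.955 to 2.34 CPM and BGLAP at 0.425 to 1.998 CPM, while SP7 and IBSP were below the filter, with at most 0.181 and 0.0224 CPM. BGLAP, SPP1 and IBSP are markers of mature osteoblasts. Of 13 markers of epithelial, endothelial, leukocyte and muscle cells, the highest value in a library was 3.46 CPM (MYH3), above the levels of SPP1 and BGLAP, and CD3E was at 0 in all 12. The 2 positive control libraries carried much of the spread used in the tests: without either of them, the calls over all genes rose from 1906 to 2934 or 2932 for RES against the negative control. Exons of HSP90AA1, AHSA1, FKBP4, DNAJB1, CRYAB, HSF1, DNAJA4 and HSPA4L overlap those of a gene on the other strand. So do exons of HSPA8, HSPB6, HSPB8 and STIP1, where the other gene was not among the genes counted. HSPA14, HSPD1 and HSPE1 have such overlaps as well. The strand setting of the counting was not given in the sources used here, so the counts of these members are uncertain. A gene was called where the false discovery rate (FDR) of edgeR's exact test, adjusted by Benjamini and Hochberg over the 17092 genes, was under 0.05.

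The promoters of 4 members are shown because these genes took different courses across the groups: HSPA1A and HSPA1B fell with serum and with RES, HSP90AA1 rose with serum and fell with RES, and HSPA8 rose with serum. Each is the stretch of 150 bases just before the RefSeq start, 5′ to 3′ on the gene's strand, from RefSeq (GRCh38.p14). Capitals mark the triplets of a pair of heat shock units, GAANNTTC or TTCNNGAA, 2 motifs that read the same on both strands.
HSPA1A, chr6:31815393-31815542, plus strand: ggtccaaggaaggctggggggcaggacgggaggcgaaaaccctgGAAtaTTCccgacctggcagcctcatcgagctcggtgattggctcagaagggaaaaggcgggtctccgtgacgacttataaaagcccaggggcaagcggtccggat
HSPA1B, chr6:31827588-31827737, plus strand: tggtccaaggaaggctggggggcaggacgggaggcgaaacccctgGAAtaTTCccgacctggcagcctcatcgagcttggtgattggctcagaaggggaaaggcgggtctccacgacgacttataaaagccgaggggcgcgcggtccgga
HSP90AA1, chr14:102087045-102087194, minus strand: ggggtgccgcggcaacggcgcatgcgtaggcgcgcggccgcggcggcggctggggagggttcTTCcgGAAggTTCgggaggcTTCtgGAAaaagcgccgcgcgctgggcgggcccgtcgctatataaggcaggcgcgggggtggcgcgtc
HSPA8, chr11:123062137-123062286, minus strand: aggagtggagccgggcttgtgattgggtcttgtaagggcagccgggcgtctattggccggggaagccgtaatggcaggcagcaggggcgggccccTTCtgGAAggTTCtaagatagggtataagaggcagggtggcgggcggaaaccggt
Both HSPA1 promoters held 1 pair, which began at base -106 in HSPA1A and at -105 in HSPA1B, counted from -1 just before the start. HSP90AA1 held pairs at -88, -83 and -68, of which the first 2 share a triplet, and HSPA8 held them at -55 and -50, which also share one. HSPA8 had 2 more pairs upstream of the stretch shown, at -230 and -225. RefSeq gave a promoter window of 300 bases (250 before the start and 50 from it) for 32 of the 36 members. A pair was found in 18 of the 32 members, against 16.2% of 27305 genes with a window. By window, it was in 40.4% of the members' 47 windows and in 13.5% of all 35116. A run of 3 units, GAANNTTCNNGAA or TTCNNGAANNTTC, was found in 7 members, namely CHORDC1, DNAJA1, DNAJB6, HSP90AA1, HSP90AB1, HSPA8 and HSPD1, and in 0.608% of all genes (14.9% of the members' windows and 0.49% of all windows). Every run of 3 units also counts as 2 overlapping pairs. Of the 7 members with a window that fell with RES, 4 held a pair (HSP90AA1, HSPA1A, HSPA1B and STIP1), as did 13 of the 24 that were not called. With serum, 10 of 15 that rose, 5 of 8 that fell and 3 of 9 not called held one. A match is a run of letters, and absence of one says only that these letters are not in the window.

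Per kilobase of exon, the members spanned more than 3 orders of magnitude. In the negative control, HSP90AB1 was highest at 274 ± 1.677 CPM per kb (SD, n = 2), followed by HSPA8 at 202 ± 2.044, HSP90AA1 at 196 ± 1.685, HSPB1 at 196 ± 1.329 and DNAJA1 at 104 ± 3.998 CPM per kb. HSP90AA1 and HSPB1 differed by less than their SD. HSPA1A and HSPA1B stood at 37.9 ± 0.1575 and 32.9 ± 0.7068 CPM per kb. Their transcripts share much sequence, and how reads that fit both were counted was not given, so these levels may be too low. The bottom of the range was DNAJA4 at 1.16 ± 0.1832, CRYAB at 0.226 ± 0.06962 and HSPB7 at 0.160 ± 0.008256 CPM per kb. CRYAB and HSPB7, small heat shock proteins known from lens and heart muscle, were at 16 to 67 reads per library. Lengths are of all annotated exons joined, so genes with long rarely used exons are set too low.

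**Figure D1:**
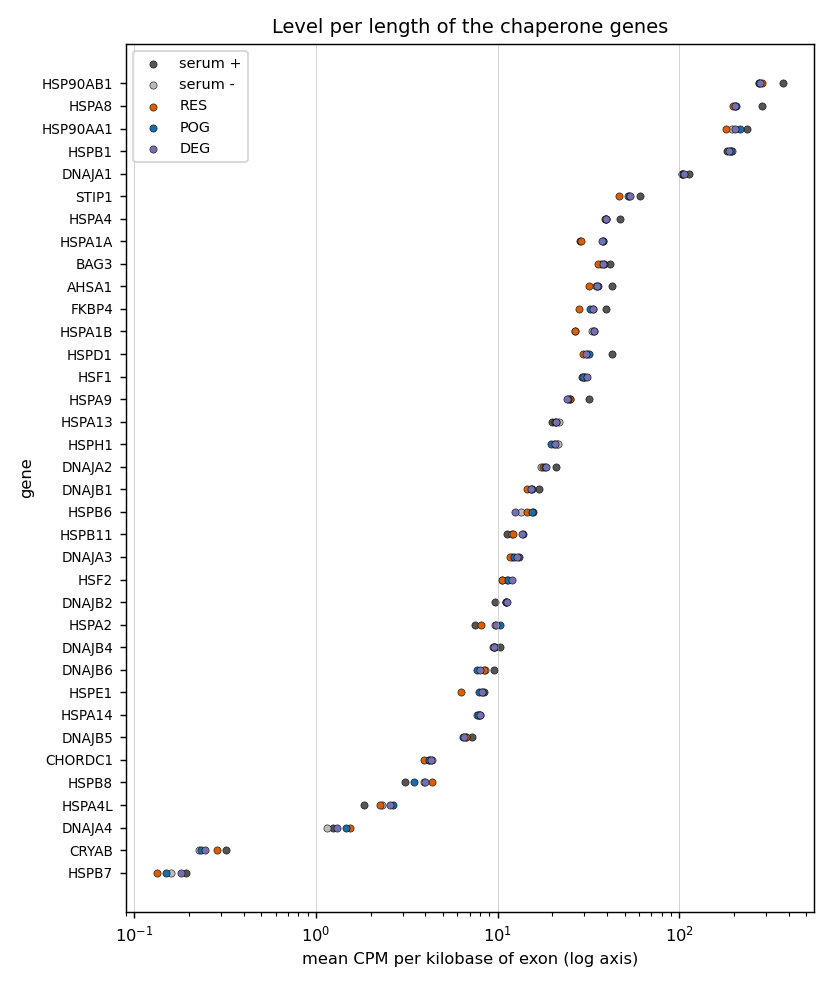
Mean level of each of the 36 genes in CPM per kilobase of exon on a log axis, with 1 point per group, ranked by the negative control. HSP90AB1 leads and HSPB7 is last in the negative control, and the 5 groups of a gene lie close together on this scale.

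With serum, 24 of 36 members were called, against 42.4% of all genes tested, 16 of them higher (21.4% of all genes) and 8 lower (20.9%). RES called 9 members (11.2% of all genes), 1 higher (4.94%) and 8 lower (6.21%). POG called 7 (14.5%), 5 higher (5.93%) and 2 lower (8.57%). DEG called 1 member (9.63%), which was higher (3.52%), and none lower (6.11%) by the exact test. By edgeR's quasi-likelihood test and by DESeq2 none was lower with DEG either, and 1 was at an unadjusted exact p under 0.05. These 4 comparisons share the 2 negative control libraries. In bulk RNA of a culture, fewer cells with a transcript and less of it per cell cannot be told apart. Of all genes called, 44.3%, 40.9% and 36.6% were higher for RES, POG and DEG, against 64.0%, 56.0% and 49.3% under plain library totals. The members then split into 1 higher and 7 lower with RES, 5 and 2 with POG, and 1 and 0 with DEG. The median log2 fold change of the members was 0.12 for serum and -0.039, 0.014 and 0.02 for RES, POG and DEG, where the medians of all genes were -0.0059, 0.0011, 0.0023 and 0.0008. Changes were small: the median absolute log2 fold change was 0.22 for serum and 0.069, 0.048 and 0.035 for RES, POG and DEG. Over all genes it was 0.21, 0.098, 0.11 and 0.10. HSPA8 with serum was the 1 member to reach 0.5 in any of the 4 comparisons among the calls.

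**Figure D2:**
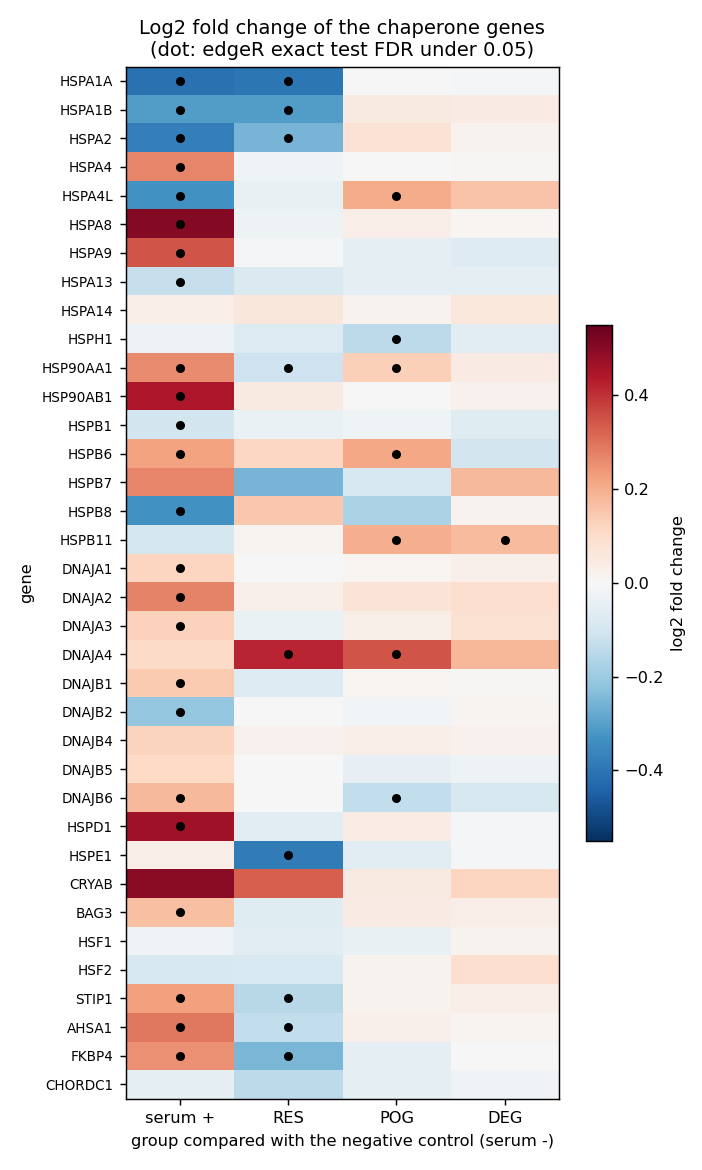
Log2 fold change of each of the 36 genes against the negative control (columns: serum, RES, POG, DEG), blue lower and red higher, with a dot where the FDR was under 0.05. Serum has 24 dots on cells of both colours, RES 9 dots of which 8 are on blue cells, POG 7 and DEG 1.

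HSPA1A and HSPA1B encode the stress-inducible HSP70 and lie next to each other on chromosome 6 (hg38, chr6:31815543-31817946 and chr6:31827738-31830254, plus strand). HSPA1A stood at 70.5 and 66.3 CPM in the positive controls, 90.8 and 91.3 in the negative controls, 67.1, 67.6 and 72.8 in RES, 89.5, 93.0 and 91.2 in POG, and 91.4 and 89.7 in DEG. The positive control and RES libraries were low and did not overlap with the other 3 groups, which lay together. HSPA1A fell by 24.8% with serum (-0.41 ± 0.045 (SE), FDR 9.01e-17, all fold changes on the log2 scale) and by 24% with RES (-0.40 ± 0.041 (SE), FDR 2.14e-17). HSPA1B stood at 68.5 and 65.1 CPM in the positive controls, 81.5 and 84.0 in the negative controls, 69.3, 64.4 and 67.2 in RES, 86.5, 86.3 and 84.6 in POG, and 85.1 and 85.6 in DEG. The same 2 groups were low. HSPA1B fell by 19.3% with serum (-0.31 ± 0.044 (SE), FDR 3.30e-10) and by 19.1% with RES (-0.31 ± 0.04 (SE), FDR 8.79e-11). In POG and DEG neither gene was called: the 95% interval of HSPA1A was -0.077 to 0.082 with POG and -0.096 to 0.079 with DEG. The transcripts of the 2 genes are 91.9% identical (2318 of 2523 aligned positions) and share 69.6% of the 150-base words of HSPA1A, so how reads were divided between them is uncertain. Summed as 1 gene, they fell with serum (-0.36, FDR 1.54e-17) and with RES (-0.35, FDR 9.85e-19), and were at 0.026 (FDR 0.746) with POG and 0.017 (FDR 0.895) with DEG.

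HSPA2 encodes an HSP70 best known from spermatogenesis. It stood at 41.9 and 40.4 CPM in the positive controls, 53.5 and 53.4 in the negative controls, 44.2, 44.4 and 45.8 in RES, 58.5, 56.6 and 54.4 in POG, and 53.2 and 55.2 in DEG. The positive control and RES libraries again lay below all others. HSPA2 fell with serum (-0.38 ± 0.05 (SE), FDR 4.21e-12) and with RES (-0.25 ± 0.045 (SE), FDR 3.68e-06), and was not called with POG (0.08 ± 0.044 (SE), FDR 0.277) or DEG (0.02 ± 0.049 (SE), FDR 0.905).

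**Figure D3:**
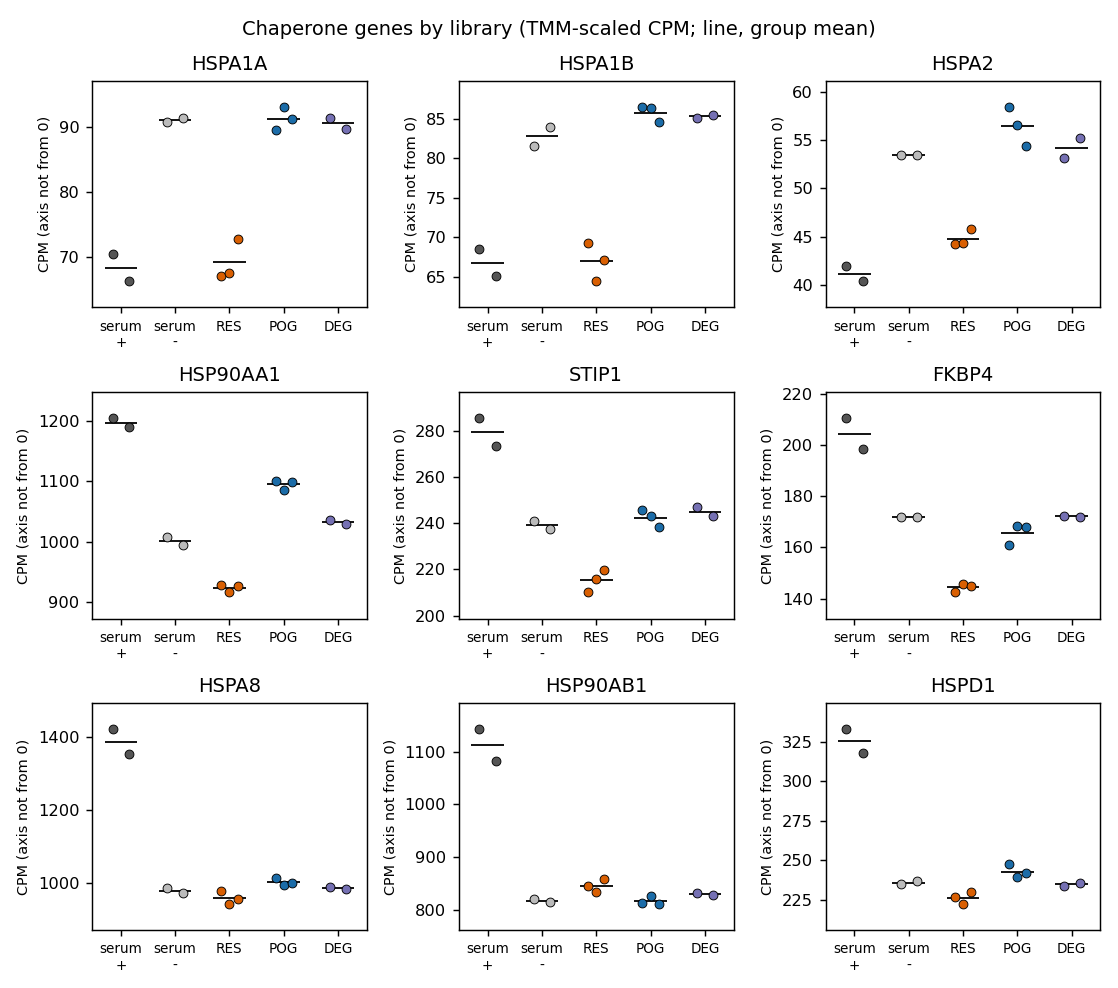
TMM-scaled CPM of 9 genes in each of the 12 libraries (points; line, group mean; axes do not start at 0). HSPA1A, HSPA1B and HSPA2 are low in both the positive control and RES, HSP90AA1, STIP1 and FKBP4 are high with serum and low in RES, and HSPA8, HSP90AB1 and HSPD1 are high with serum, with the serum-free groups close together.

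HSPA8 encodes HSC70, the HSP70 that cells make at all times. It stood at 1420 and 1353 CPM in the positive controls, 984 and 970.5 in the negative controls, 975, 942 and 955 in RES, 1011, 992 and 999.7 in POG, and 988 and 981 in DEG. Both positive control libraries were above the other 10, which lay between 942 and 1011 CPM. HSPA8 was 41.9% higher with serum (0.50 ± 0.028 (SE), FDR 6.45e-45) and was not called with RES (-0.03 ± 0.025 (SE), FDR 0.653), POG (0.034 ± 0.025 (SE), FDR 0.566) or DEG (0.01 ± 0.028 (SE), FDR 0.936). Reads of its 17 annotated pseudogenes came to 0.157% of its own. With serum the constitutive HSP70 gene was higher and the inducible pair lower.

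The HSP110 genes HSPA4, HSPA4L and HSPH1 encode nucleotide exchange factors of HSP70, and they did not move as one. HSPA4 stood at 239 and 242 CPM in the positive controls, 200.4 and 199 in the negative controls, 195, 192 and 204 in RES, 202, 197 and 199 in POG, and 198 and 203 in DEG. The positive control stood apart, and HSPA4 rose with serum (0.27 ± 0.035 (SE), FDR 4.38e-11). HSPA4L stood at 20.3 and 21.6 CPM in the positive controls, 25.2 and 27.5 in the negative controls, 25.3, 25.5 and 26.0 in RES, 32.1, 29.8 and 29.3 in POG, and 30.2 and 28.6 in DEG. It was lowest with serum and highest in POG and DEG. HSPA4L fell with serum (-0.33 ± 0.067 (SE), FDR 6.47e-06) and rose with POG (0.20 ± 0.059 (SE), FDR 0.00775), a call that was lost without negative control replicate 1 (FDR 0.29) or POG replicate 1 (FDR 0.0863). HSPH1 stood at 175 and 179.5 CPM in the positive controls, 181 and 181 in the negative controls, 172, 170.5 and 174 in RES, 161, 168 and 162 in POG, and 173 and 176 in DEG. The 3 POG libraries were below all 9 others, and HSPH1 fell with POG (-0.14 ± 0.032 (SE), FDR 7.67e-04). With RES it was at -0.075 ± 0.032 (SE), FDR 0.163, and it was called when positive control replicate 1 (FDR 0.0294) or replicate 2 (FDR 0.0293) was left out. HSPA13 stood at 79.7 and 85.8 CPM in the positive controls, 87.9 and 92.8 in the negative controls, 90.7, 84.6 and 81.3 in RES, 87.1, 85.9 and 87.9 in POG, and 86.9 and 87.7 in DEG. It fell with serum (-0.13 ± 0.047 (SE), FDR 0.028). Leaving out positive control replicate 1 (FDR 0.237) or negative control replicate 2 (FDR 0.32) lost the call. HSPA14, which acts with a J protein at the ribosome, was not called in any comparison and ranged from 17.9 to 22.2 CPM. Its exons overlap those of MSANTD7 on the same strand and CDNF on the other, so its counts are uncertain. In all, 2 of the 9 HSP70 and HSP110 genes rose with serum (21.4% of all genes) and 5 fell (20.9%), and 3 fell with RES (6.21%).

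Both cytosolic HSP90 genes rose with serum, and HSP90AA1 was also called with RES and POG. HSP90AA1, the inducible form, stood at 1204 and 1190 CPM in the positive controls, 1007 and 995 in the negative controls, 928, 916 and 926 in RES, 1101, 1086 and 1098 in POG, and 1036 and 1030 in DEG. Each group held its own range: serum was highest, then POG, DEG, the negative control and RES, with no overlap. HSP90AA1 rose with serum (0.26 ± 0.025 (SE), FDR 4.38e-14) and with POG (0.13 ± 0.023 (SE), FDR 3.14e-04) and fell with RES (-0.12 ± 0.023 (SE), FDR 0.00237). The RES call did not hold when negative control replicate 1 was left out (FDR 0.0922). With DEG it was not called (0.046 ± 0.025 (SE), FDR 0.459). HSP90AB1, the constitutive form, stood at 1142 and 1082 CPM in the positive controls, 821 and 814 in the negative controls, 845, 834 and 858 in RES, 812, 826 and 812 in POG, and 832 and 829 in DEG. Serum was above all other libraries. HSP90AB1 was 36.1% higher with serum (0.44 ± 0.028 (SE), FDR 1.37e-34), and with RES it was at 0.05 ± 0.026 (SE), FDR 0.379. The change of the 2 forms between POG and RES was 0.25 (95% interval 0.205 to 0.286) for HSP90AA1 and -0.051 (-0.096 to -0.006) for HSP90AB1. Pseudogene reads came to 0.258% and 0.164% of the 2 genes' own, and HSP90AA1 shares exon positions with WDR20 on the other strand.

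The 3 cochaperones STIP1, AHSA1 and FKBP4 had the course of HSP90AA1 in serum and RES: higher with serum, lower with RES. STIP1 (HOP) links HSP70 to HSP90. It stood at 285 and 274 CPM in the positive controls, 241 and 238 in the negative controls, 210.0, 216 and 219.7 in RES, 246, 243 and 238 in POG, and 247 and 243 in DEG. The RES libraries were the lowest of all and the positive controls the highest, and STIP1 rose with serum (0.22 ± 0.034 (SE), FDR 2.69e-08) and fell with RES (-0.15 ± 0.031 (SE), FDR 4.25e-04). AHSA1 speeds the ATPase cycle of HSP90. It stood at 130.1 and 121 CPM in the positive controls, 104 and 102 in the negative controls, 93.6, 92.8 and 94.7 in RES, 108, 103 and 104 in POG, and 108 and 100.3 in DEG. AHSA1 rose with serum (0.29 ± 0.043 (SE), FDR 2.69e-09) and fell with RES (-0.13 ± 0.039 (SE), FDR 0.0191). The RES call of AHSA1 was lost without negative control replicate 1 (FDR 0.222), negative control replicate 2 (FDR 0.107), RES replicate 1 (FDR 0.0622) or RES replicate 2 (FDR 0.0803), and under plain library totals (FDR 0.0811). FKBP4 (FKBP52) is an immunophilin that works with HSP90 on steroid receptors. It stood at 210.5 and 198 CPM in the positive controls, 172 and 172 in the negative controls, 142, 146 and 145 in RES, 161, 168 and 168 in POG, and 172 and 172 in DEG. FKBP4 rose with serum (0.25 ± 0.036 (SE), FDR 4.25e-09) and fell by 16.1% with RES (-0.25 ± 0.033 (SE), FDR 9.78e-10). CHORDC1, another HSP90 partner, was not called in the 4 comparisons. Its RES libraries (43.0 to 44.2 CPM) were below both negative controls (48.1 and 48.5 CPM), at -0.15 ± 0.052 (SE), FDR 0.0582, and it was called without positive control replicate 1 (FDR 0.00897) or replicate 2 (FDR 0.0092). For serum it was called lower without positive control replicate 2 (FDR 0.0306). With POG and DEG none of the 4 cochaperones was called by the exact test, the quasi-likelihood test or DESeq2, and none had an unadjusted p under 0.05. Their log2 fold changes lay between -0.055 and 0.029 with POG and between -0.02 and 0.035 with DEG.

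J proteins start the HSP70 cycle by stimulating its ATPase. With serum, 4 of the 8 cytosolic J protein genes rose and 1 fell, where 21.4% of all genes rose and 20.9% fell. DNAJA1 stood at 316 and 286 CPM in the positive controls, 285 and 269.5 in the negative controls, 280.2, 274 and 278 in RES, 284, 273 and 280.3 in POG, and 282 and 282 in DEG. It rose with serum (0.12 ± 0.037 (SE), FDR 0.0131), and the call was lost without positive control replicate 1 (FDR 0.214) or negative control replicate 2 (FDR 0.213) and under plain library totals (FDR 0.13). DNAJA2 stood at 106 and 102 CPM in the positive controls, 85.4 and 87.0 in the negative controls, 88.7, 87.2 and 87.5 in RES, 91.2, 87.8 and 92.4 in POG, and 94.0 and 89.9 in DEG. Its positive controls were above the other 10 libraries, and it rose with serum (0.27 ± 0.041 (SE), FDR 5.08e-09). DNAJB1, the classic HSP40 partner of inducible HSP70, stood at 140.3 and 136 CPM in the positive controls, 126 and 124 in the negative controls, 118, 116 and 123 in RES, 127, 125 and 126 in POG, and 125 and 126 in DEG. It was 10.4% higher with serum (0.14 ± 0.038 (SE), FDR 0.00186), a call lost with dispersions from the groups compared (FDR 0.0682). In RES all 3 libraries were below both negative controls without a call (-0.072 ± 0.035 (SE), FDR 0.233). DNAJB6, which keeps polyglutamine proteins from aggregating, stood at 143 and 144 CPM in the positive controls, 130.1 and 124 in the negative controls, 130.2, 123 and 126 in RES, 118, 114 and 113 in POG, and 119 and 119.9 in DEG. DNAJB6 rose with serum (0.18 ± 0.039 (SE), FDR 1.30e-04) and fell with POG (-0.14 ± 0.036 (SE), FDR 0.0052), the latter lost without negative control replicate 1 (FDR 0.239) or POG replicate 3 (FDR 0.0513). Reads of its pseudogenes came to 2.16% of its own.

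DNAJB2, a J protein abundant in neurons, went the other way. It stood at 59.0 and 53.8 CPM in the positive controls, 64.0 and 66.7 in the negative controls, 65.9, 64.4 and 65.7 in RES, 66.9, 64.7 and 62.3 in POG, and 65.3 and 66.7 in DEG. The positive controls were the 2 lowest libraries, and DNAJB2 fell with serum (-0.21 ± 0.049 (SE), FDR 1.49e-04). DNAJA4 was the 1 member that rose with RES. It stood at 8.38 and 7.97 CPM in the positive controls, 8.47 and 6.76 in the negative controls, 10.9, 9.57 and 10.1 in RES, 10.1, 9.59 and 9.36 in POG, and 8.71 and 8.55 in DEG. DNAJA4 rose with RES (0.42 ± 0.098 (SE), FDR 5.47e-04) and with POG (0.35 ± 0.098 (SE), FDR 0.00569). The 2 negative controls differed from each other by more than replicate 1 differed from the nearest RES or POG library. Without negative control replicate 2 both calls were lost (FDR 0.186 and 0.376). DNAJB4 (34.4 to 39.6 CPM) and DNAJB5 (37.6 to 44.4 CPM) were not called in the 4 comparisons, and both were called for serum when positive control replicate 2 was left out (FDR 0.00782 and 0.00848). DNAJB4 shares exons with GIPC2 on the same strand.

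HSPD1 (HSP60) and HSPE1 (HSP10) form the barrel and lid of the mitochondrial chaperonin and lie on opposite strands of chromosome 2 (hg38, chr2:197486584-197516737, minus strand, and chr2:197500140-197503449, plus strand). As annotated, HSPE1 lies within the span of HSPD1. HSPD1 stood at 333 and 318 CPM in the positive controls, 235 and 237 in the negative controls, 227, 222 and 229.7 in RES, 247, 239.6 and 242 in POG, and 234 and 236 in DEG. Serum was above all other libraries, and HSPD1 was 38% higher with serum (0.46 ± 0.033 (SE), FDR 1.45e-33). With RES it was not called (-0.06 ± 0.03 (SE), FDR 0.295). HSPE1 stood at 15.8 and 14.8 CPM in the positive controls, 15.3 and 14.6 in the negative controls, 12.0, 11.5 and 10.8 in RES, 13.5, 15.4 and 14.1 in POG, and 14.8 and 15.01 in DEG. It took another course: its RES libraries were below the other 9. HSPE1 fell by 23.5% with RES (-0.39 ± 0.077 (SE), FDR 4.14e-05) and was at 0.039 ± 0.082 (SE), FDR 0.774 with serum. HSPE1 counts are uncertain. Its exons overlap those of the readthrough transcript HSPE1-MOB4 on the same strand and those of HSPD1 on the other. HSPE1 was credited with 7214 reads over all libraries, against 129913 for HSPD1, and HSPE1-MOB4 with 7. MOB4, which shares exons with the same readthrough, also fell with RES (-0.21 ± 0.0683 (SE), FDR 0.0269). The part of shared exons in the fall of HSPE1 was not tested. Its 26 pseudogenes held 5.27% as many reads as HSPE1.

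HSPA9 (mortalin) is the HSP70 of mitochondria. It stood at 317 and 309 CPM in the positive controls, 243 and 249.7 in the negative controls, 255, 234 and 247 in RES, 240.2, 236 and 238 in POG, and 236 and 233 in DEG. It rose with serum (0.35 ± 0.035 (SE), FDR 1.28e-16). The mitochondrial J protein DNAJA3 stood at 97.4 and 87.2 CPM in the positive controls, 87.0 and 82.5 in the negative controls, 83.1, 81.9 and 83.0 in RES, 82.6, 86.8 and 90.7 in POG, and 90.7 and 89.2 in DEG. It rose with serum (0.12 ± 0.048 (SE), FDR 0.0378), and the call was lost without positive control replicate 1 (FDR 0.492) or negative control replicate 2 (FDR 0.293) and under plain library totals (FDR 0.199). With POG and DEG none of these 4 mitochondrial genes was called by the exact test, the quasi-likelihood test or DESeq2, and none had an unadjusted p under 0.05.

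Of the 7 small heat shock protein and BAG3 genes, 2 rose and 2 fell with serum, near the shares of all genes (21.4% and 20.9%). HSPB1 (HSP27) stood at 308 and 284 CPM in the positive controls, 319 and 316 in the negative controls, 312, 309 and 308 in RES, 302, 318 and 316 in POG, and 305 and 302 in DEG. It fell with serum (-0.10 ± 0.035 (SE), FDR 0.0284), and the call was lost without positive control replicate 2 (FDR 0.308), negative control replicate 1 (FDR 0.146) or negative control replicate 2 (FDR 0.103). HSPB6 (HSP20) stood at 26.9 and 27.1 CPM in the positive controls, 25.6 and 20.6 in the negative controls, 23.9, 24.4 and 26.6 in RES, 27.3, 26.5 and 26.6 in POG, and 21.5 and 21.6 in DEG. The 2 negative controls were far apart, 1 of them the lowest of all 12 libraries. HSPB6 rose with serum (0.22 ± 0.075 (SE), FDR 0.01) and with POG (0.21 ± 0.069 (SE), FDR 0.0206). Without negative control replicate 2 the FDR was 0.519 and 0.736, and without negative control replicate 1 HSPB6 was called higher with RES (FDR 0.0146). The POG call was also lost without POG replicate 1 (FDR 0.0844). HSPB8 (HSP22) works with BAG3 in selective autophagy. It stood at 11.4 and 10.8 CPM in the positive controls, 12.8 and 15.2 in the negative controls, 16.5, 14.8 and 15.4 in RES, 12.7, 11.7 and 12.9 in POG, and 13.7 and 14.8 in DEG. HSPB8 fell with serum (-0.33 ± 0.091 (SE), FDR 0.00101), which did not hold without negative control replicate 2 (FDR 0.15). With POG it was at -0.17 ± 0.082 (SE), FDR 0.156, and without negative control replicate 1 it was called lower (FDR 0.0399). Its partner BAG3, a nucleotide exchange factor, stood at 117 and 112 CPM in the positive controls, 99.0 and 104 in the negative controls, 97.6, 97.1 and 96.8 in RES, 105, 108 and 103 in POG, and 100.4 and 108 in DEG. BAG3 rose with serum (0.17 ± 0.042 (SE), FDR 8.42e-04), which did not hold without negative control replicate 1 (FDR 0.0609). The partners were on opposite sides of the negative control with serum.

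HSPB11 (IFT25) was the 1 member called with DEG. It stood at 34.9 and 32.7 CPM in the positive controls, 36.8 and 35.5 in the negative controls, 37.5, 36.2 and 35.6 in RES, 42.4, 40.8 and 41.4 in POG, and 40.6 and 40.8 in DEG. All POG and DEG libraries were above the other 7. HSPB11 rose with POG (0.20 ± 0.049 (SE), FDR 0.00112) and with DEG (0.17 ± 0.054 (SE), FDR 0.0257). Without negative control replicate 2 neither call held (FDR 0.0736 and 0.242), and the DEG call was also lost without negative control replicate 1 (FDR 0.0686), DEG replicate 1 (FDR 0.138), DEG replicate 2 (FDR 0.162) or the filter on low counts (FDR 0.0712). CRYAB (26 to 67 reads per library) and HSPB7 (16 to 30) were not called, and their intervals were wide: -0.124 to 1.114 for CRYAB and -0.562 to 1.097 for HSPB7 with serum. With RES none of the 7 small heat shock protein and BAG3 genes was called by the exact test, the quasi-likelihood test or DESeq2, and none had an unadjusted p under 0.05.

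The transcription factor genes HSF1 and HSF2 were not called against the negative control. HSF1, whose activity is set mainly on the protein, ranged from 150.2 to 166.5 CPM, and HSF2 from 26.9 to 33.1 CPM. With the 3 compounds neither was called against the negative control by the exact test, the quasi-likelihood test or DESeq2, and neither had an unadjusted p under 0.05. For HSF1 the 95% intervals were -0.104 to 0.056 with serum, -0.13 to 0.016 with RES, -0.112 to 0.034 with POG and -0.061 to 0.1 with DEG.

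The 3 compounds were compared directly at 1 µg/mL, in 3 pairs. POG against RES called 15 of the 36 members (27.9% of all genes), 13 higher in POG (13.7%) and 2 lower (14.1%). DEG against RES called 13 (21.2%), 12 higher in DEG (10.3%) and 1 lower (10.8%). These comparisons share the 3 RES libraries. DEG against POG called 1 (1.05%), lower in DEG (0.497%), and none higher (0.55%), as by the quasi-likelihood test and DESeq2, with 2 higher at an unadjusted exact p under 0.05. The median log2 fold change of the members was 0.067 for POG against RES, 0.059 for DEG against RES and 0.011 for DEG against POG, and over all genes -0.0007, -0.0047 and 0.0001.

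The HSP70 genes low in RES differed from both other compounds. HSPA1A was higher in POG than in RES (0.40 ± 0.036 (SE), FDR 4.19e-23) and in DEG than in RES (0.39 ± 0.041 (SE), FDR 4.52e-17). HSPA1B gave 0.36 ± 0.035 (SE), FDR 1.54e-19 for POG and 0.35 ± 0.04 (SE), FDR 1.51e-14 for DEG. The pair summed gave 0.38 (FDR 4.86e-28) and 0.37 (FDR 5.19e-21). HSPA2 gave 0.33 ± 0.04 (SE), FDR 2.98e-14 and 0.27 ± 0.045 (SE), FDR 1.72e-07. HSPE1, which is not an HSP70 gene and whose counts are uncertain, gave 0.33 ± 0.069 (SE), FDR 2.80e-05 and 0.38 ± 0.077 (SE), FDR 2.61e-05. For these 4 genes no POG or DEG library reached down to a RES library. The same was so for other members, among them HSP90AA1, STIP1, FKBP4, AHSA1, HSPA4L, HSPB11 and also HSPA8, which was not called. The share of all genes separated in this way was not counted, so the separation is not shown to be particular to these members. On the HSP90 side, HSP90AA1 gave 0.25 ± 0.021 (SE), FDR 2.84e-18 for POG against RES and 0.16 ± 0.023 (SE), FDR 1.56e-06 for DEG against RES.

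Among the HSP90 cochaperones, STIP1 gave 0.17 ± 0.027 (SE), FDR 6.38e-07 for POG and 0.19 ± 0.031 (SE), FDR 2.23e-06 for DEG. FKBP4 gave 0.20 ± 0.03 (SE), FDR 3.90e-08 and 0.25 ± 0.033 (SE), FDR 3.70e-10. AHSA1 gave 0.16 ± 0.035 (SE), FDR 1.41e-04 and 0.15 ± 0.039 (SE), FDR 0.00344, the latter lost without DEG replicate 1 (FDR 0.25). The RES libraries are the same in all of these comparisons and in that of RES with the negative control.

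Further members differed between compounds. HSPA4L was higher than RES in POG (0.25 ± 0.052 (SE), FDR 3.73e-05) and in DEG (0.20 ± 0.059 (SE), FDR 0.00756, lost without DEG replicate 1, FDR 0.184). HSPB11 was higher in POG (0.19 ± 0.043 (SE), FDR 1.81e-04) and in DEG (0.16 ± 0.048 (SE), FDR 0.0104), the latter lost without RES replicate 3 (FDR 0.055), DEG replicate 1 (FDR 0.0819) or DEG replicate 2 (FDR 0.101). HSPB8 was lower in POG than in RES (-0.32 ± 0.072 (SE), FDR 7.71e-05), and DNAJB6 too (-0.13 ± 0.032 (SE), FDR 7.89e-04). HSPD1 was higher in POG than in RES (0.10 ± 0.027 (SE), FDR 0.00529, FDR 0.0526 without RES replicate 2 and 0.0585 without POG replicate 1), as was BAG3 (0.11 ± 0.034 (SE), FDR 0.0117, FDR 0.0965 without POG replicate 2). DNAJB1 for POG (0.083 ± 0.031 (SE), FDR 0.0496) and DNAJA3 for DEG (0.12 ± 0.044 (SE), FDR 0.0453) were at the threshold, and 12 alternatives each lost the call, with FDRs of up to 0.234 for DNAJB1 without RES replicate 2 and 0.271 for DNAJA3 without DEG replicate 1. HSF2 was higher in DEG than in RES (0.18 ± 0.059 (SE), FDR 0.0182), which was lost without RES replicate 1 (FDR 0.0754), RES replicate 3 (FDR 0.128) or DEG replicate 1 (FDR 0.255).

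The spread of the 2 positive controls bears on these pairs too. Without positive control replicate 1, HSPA8 (FDR 0.000919), HSPH1 (FDR 0.0155), HSP90AB1 (FDR 0.0199) and CHORDC1 (FDR 0.0484) were also called for POG against RES. DNAJA4 (FDR 0.0423), DNAJB1 (FDR 0.0214), DNAJB6 (FDR 0.0202), BAG3 (FDR 0.00828), HSF1 (FDR 0.0251) and CHORDC1 (FDR 0.0177) were also called for DEG against RES. The same members were called without positive control replicate 2. HSPA8, the highest of them in CPM though not per kilobase, was at 0.064 ± 0.022 (SE), FDR 0.0785 with all libraries. It was called for POG against RES by the quasi-likelihood test (FDR 0.0326) and DESeq2 (FDR 0.0307). DNAJA4 was lower in DEG than in RES at -0.24 ± 0.096 (SE), FDR 0.0574, close to the threshold, and 8 alternatives called it. HSF2 was called for POG against RES without RES replicate 2 (FDR 0.0242), and BAG3 for DEG against RES without DEG replicate 1 (FDR 0.0372).

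HSPB6 was the member called between DEG and POG. Its DEG libraries (21.5 and 21.6 CPM) were below the 3 POG libraries (26.5 to 27.3 CPM), at -0.31 ± 0.07 (SE), FDR 0.00256. It was also lower in DEG than in RES (-0.22 ± 0.07 (SE), FDR 0.0145). Without DEG replicate 1 or replicate 2 the FDR was 0.109 and 0.134 against POG, and 0.117 and 0.111 against RES, where leaving out RES replicate 3 lost the call as well (FDR 0.116). Among other members, the difference between DEG and POG had an interval of -0.09 to 0.068 for HSPA1A and -0.085 to 0.07 for HSPA1B. The interval was -0.045 to 0.076 for STIP1 and -0.073 to 0.025 for HSPA8. These intervals were set gene by gene and cover only the spread between these libraries, which may be technical. They do not bound how far the effects of the compounds can be apart. HSP90AA1 was lower in both DEG libraries than in any POG library (-0.084 ± 0.023 (SE), FDR 0.168). That difference was not called by the exact test, but was by DESeq2 (FDR 0.0287) and, by the exact test, without positive control replicate 1 (FDR 0.00136) or replicate 2 (FDR 0.00137). HSPH1 was higher in both DEG libraries than in any POG library (0.087 ± 0.032 (SE), FDR 0.264), and was called without either positive control (FDR 0.0335).

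**Figure D4:**
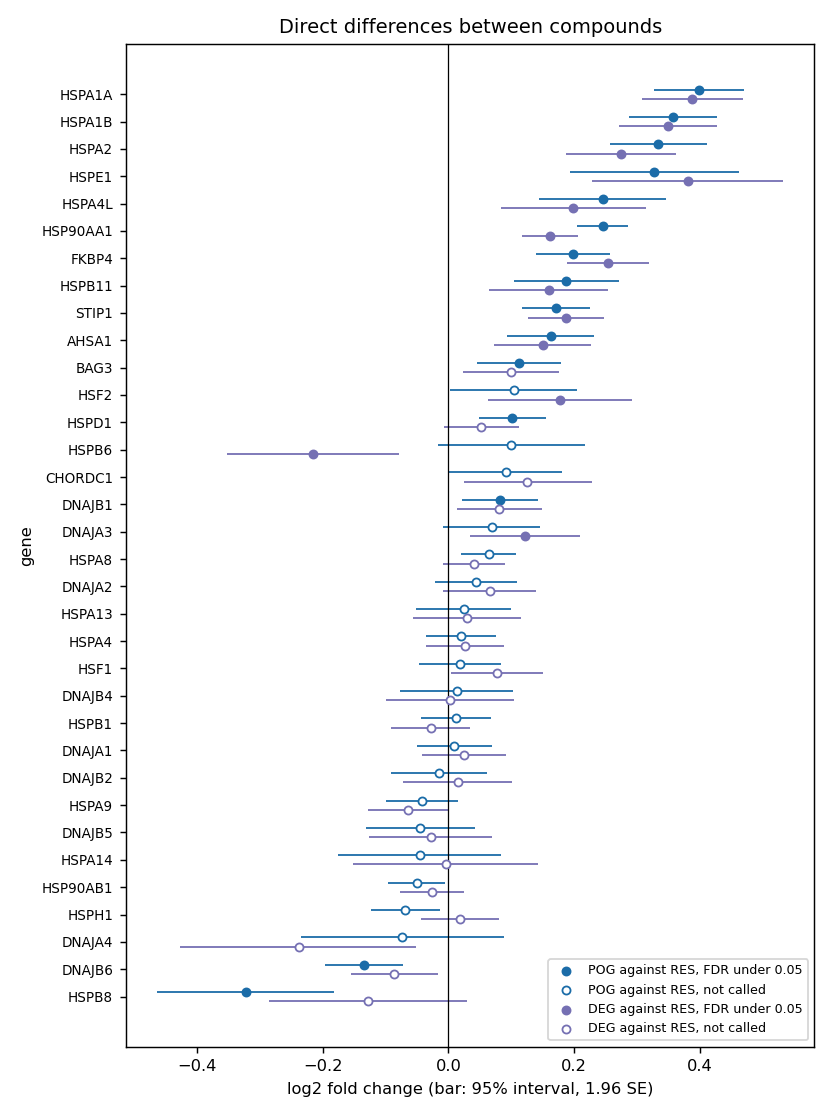
Log2 fold change of POG against RES (blue) and of DEG against RES (purple) for 34 genes, with 95% intervals, filled where the FDR was under 0.05; HSPB7 and CRYAB, with intervals too wide for the axis, are left out. HSPA1A, HSPA1B, HSPA2 and HSPE1 lie farthest to the right for both compounds, and HSPB6 is the gene whose 2 points lie on opposite sides of 0 with a filled point for DEG.

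Related gene lists were read beside the members in the same fit, and their counts are to be set against the shares of all genes called: 21.4% higher and 20.9% lower with serum, 4.94% and 6.21% with RES, 5.93% and 8.57% with POG, and 3.52% and 6.11% with DEG. Of 12 further genes read as a list of genes inducible by HSF1, 6 fell with serum (largest FOS, -0.71 ± 0.106 (SE), FDR 4.68e-10). With RES 3 fell (largest HMOX1, heme oxygenase, -0.32 ± 0.0628 (SE), FDR 2.6e-05). Between compounds, 6 were higher and 1 lower in POG than in RES, where 13.7% and 14.1% of all genes were. DEG against RES also gave 6 higher and 1 lower, where the shares of all genes were 10.3% and 10.8%. Other lists, given below, also held more genes higher than lower in these pairs, though not all did. With POG 1 fell (CLU, clusterin, -0.16 ± 0.0541 (SE), FDR 0.027), and with DEG CLU fell (-0.17 ± 0.0601 (SE), FDR 0.049) and 1 rose. DESeq2 called CLU in neither, and the quasi-likelihood test not with DEG. HSPA6, the HSP70 gene silent in most unstressed cells, was among the 12. It was not called in any comparison, and with serum it was at 0.27 ± 0.288 (SE). FOS and HMOX1 answer to growth factors and oxidants, so the list is not specific to HSF1. Whether HSF1 induces each listed gene in these cells was not tested.

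The cytosolic chaperonin CCT, a ring that folds actin and tubulin, was higher with serum: all 8 subunit genes rose (median 0.38, largest CCT4, 0.43 ± 0.0354 (SE), FDR 9.19e-26). With RES TCP1 fell (-0.12 ± 0.0315 (SE), FDR 0.012), with POG CCT3 fell (-0.1 ± 0.0333 (SE), FDR 0.0471), and with DEG none of the 8 was called by the exact test, the quasi-likelihood test or DESeq2, with 1 at an unadjusted p under 0.05. Of the 6 subunits of prefoldin, which hands actin and tubulin to CCT, 5 rose with serum (largest PFDN4, 0.47 ± 0.0726 (SE), FDR 1.97e-09). With the 3 compounds no prefoldin subunit was called by any of the 3 tools, where 0 with RES, 1 with POG and 2 with DEG had an unadjusted p under 0.05.

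Of 17 further genes listed as HSP90 cochaperones, 9 rose with serum. AHSA2P, which is named as a pseudogene, fell (-0.39 ± 0.0372 (SE), FDR 3.05e-20), while AHSA1 rose. CDC37L1 led the 3 that rose with POG (0.22 ± 0.0797 (SE), FDR 0.0427) and was the 1 that rose with DEG (0.28 ± 0.0877 (SE), FDR 0.0245). A list of 8 further genes held BAG genes, HSPBP1 and the HSP70 relatives HSPA12A and HSPA12B. Of these, 3 rose with serum (largest HSPA12A, 0.53 ± 0.0929 (SE), FDR 1.24e-07) and BAG6 fell with RES (-0.16 ± 0.0278 (SE), FDR 5.03e-05). With POG and DEG none of these 8 was called by any of the 3 tools, with 2 and 0 at an unadjusted p under 0.05. Of 20 other J-domain genes, 5 rose and 4 fell with serum, near the shares of all genes (largest DNAJC27, -0.40 ± 0.126 (SE), FDR 0.00621). With RES 1 rose and DNAJC17 fell (-0.25 ± 0.081 (SE), FDR 0.023). DNAJC30 fell with POG (-0.38 ± 0.106 (SE), FDR 0.00429) and with DEG (-0.64 ± 0.122 (SE), FDR 9.54e-06).

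Of 11 further mitochondrial chaperones and proteases, 5 rose with serum, led by TRAP1, the mitochondrial HSP90 (0.57 ± 0.0362 (SE), FDR 9.98e-44). TRAP1 also rose with POG (0.21 ± 0.0334 (SE), FDR 1.2e-06) and with DEG (0.16 ± 0.0368 (SE), FDR 0.00156), and with RES 2 genes of the list fell (larger CLPB, -0.21 ± 0.0576 (SE), FDR 0.0088). Of 10 relatives in the endoplasmic reticulum, 1 rose and 2 fell with serum, no more than the shares of all genes, and the quasi-likelihood test and DESeq2 each gave 2 and 2 (largest DNAJC3, -0.28 ± 0.048 (SE), FDR 2.14e-07). HYOU1, a relative of the HSP110 proteins, fell with RES (-0.11 ± 0.0295 (SE), FDR 0.0152). SIL1, an exchange factor of the reticulum's HSP70, rose with RES (0.17 ± 0.0532 (SE), FDR 0.0188) and with POG (0.22 ± 0.053 (SE), FDR 0.000795). With POG, 3 of the 10 rose, SIL1 the most, and 0 fell, where 5.93% of all genes rose and 8.57% fell. HSP90B1, the reticulum's HSP90, rose with DEG (0.12 ± 0.0251 (SE), FDR 0.00807). Of 6 other HSF factors and HSF1 regulators, 5 were tested, of which 1 rose and 2 fell with serum (largest HSF4, -0.62 ± 0.172 (SE), FDR 0.00112). With the 3 compounds none of the 5 was called by any of the 3 tools, with 1 at an unadjusted p under 0.05 with RES and 0 with POG and DEG. Against RES, CCT gave 4 higher and 0 lower in POG, then 2 and 0 in DEG. Prefoldin gave 2 and 0, then 1 and 0, and the 17 cochaperones 5 and 0, then 4 and 0. The BAG list gave 1 and 2, then 1 and 0, and the J-domain list 4 and 3, then 1 and 3. The mitochondrial list gave 3 and 1, then 2 and 0, and the reticulum list 2 and 0, then 1 and 0. The 5 HSF genes gave none. The shares of all genes were 13.7% and 14.1% in POG and 10.3% and 10.8% in DEG. No difference between lists was tested.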

How the data were processed

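Messenger RNA of hFOB 1.19 cells was poly(A)-selected and sequenced. What the authors deposited is a single table of gene-level raw counts without normalization. Per the labels and the study's methods, reads were aligned to hg38 with STAR (BWA MEM was also named) and counted on Ensembl genes with featureCounts. Versions, strand setting and handling of multi-mapped reads were not given in the sources used here, so counts of genes that overlap or have close copies are uncertain. The labels name 13 samples and 12 libraries were used, since no column matched the third DEG sample. Groups came from the labels. Replicate numbers are names in accession order.

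Symbols were joined on Ensembl identifiers, of which 43177 matched, and HSPB11 was matched through RefSeq synonyms. The function filterByExpr, given the groups, kept 17092 genes holding 99.967% of the reads. Libraries were scaled by TMM and groups compared with the exact test of edgeR 4.0.16 (R 4.3.3), 2-sided, dispersions being estimated over all 12 libraries (common biological coefficient of variation 3.21%), with Benjamini-Hochberg adjustment over all genes tested and a threshold of 0.05. Standard errors came from edgeR's quasi-likelihood fit, and 95% intervals are normal intervals from them. The members and lists were chosen with earlier results of these data known. Library values are given for members called against the negative control or between POG and RES, and ranges for the others. From each other list, the called gene with the largest absolute change in each comparison with the negative control is named, except 1 that is not reported here, and HSPA6, HYOU1 and MOB4 were named after their values were seen. Coordinates and exon overlaps are from GENCODE v44 (hg38) and promoters from RefSeq. Alternatives were the quasi-likelihood test, DESeq2 1.42.0, other scalings, filters and thresholds, dispersions from the groups compared, each library left out, and HSPA1A and HSPA1B summed. Depth limits counting error only.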

Additional observations from a re-analysis of the deposited data

How the results depend on the processing

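In the 20 settings tried on single members, 4876 of 5014 recomputed values kept their call, 80 calls were lost, 58 were gained and 0 changed direction. Of the 70 calls over the 7 comparisons, 43 held in every setting: 16 of 24 for serum, 6 of 9 for RES, 2 of 7 for POG, 0 of 1 for DEG, 12 of 15 for POG against RES, 7 of 13 for DEG against RES and 0 of 1 for DEG against POG. Requiring an absolute log2 fold change of 0.5 left 1 member with serum and 0 in each other comparison. An FDR under 0.01, or no filter on low counts, left 0 calls for DEG. For DEG against POG, DESeq2 called 2 members and dispersions from the groups compared called 3. Leaving out 1 library at a time gave 18 to 26 members for serum, 7 to 11 for RES, 4 to 7 for POG (4 without negative control replicate 2), 0 to 1 for DEG, 13 to 19 for POG against RES, 8 to 19 for DEG against RES (8 without DEG replicate 1, 19 without either positive control) and 0 to 3 for DEG against POG. With 1 library left in a group, its spread is assumed to be that of the others. HSPA1A and HSPA1B summed ranged over the libraries left out from -0.40 to -0.32 with serum, -0.37 to -0.33 with RES, 0.014 to 0.040 with POG, 0.0041 to 0.032 with DEG, 0.36 to 0.40 for POG against RES, 0.35 to 0.39 for DEG against RES and -0.015 to 0.0001 for DEG against POG. Plain library totals split the serum calls into 14 higher and 9 lower members. No paired analysis was possible because the labels give no replicate numbers.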
